A study of Mus musculus with 2 samples.

Results

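The genes described here are 9 of the 20433 with a named probe on the array: Phf11a, Phf11b, Phf11c and Phf11d, which encode the PHF11 proteins, Sp100, Sp110 and Sp140, which encode the speckled proteins, and Pml and Daxx, which encode core proteins of the PML nuclear body. They were chosen as a list of symbols and found on the array through the RefSeq accession of each probe, and all 9 had a probe, 14 probes in all. Probes named only by a position on chromosome 1 were added to them, in intervals that lie within 85036677 to 85337483 (mm9). The list was drawn up with the difference between the samples already known, so the counts below describe the genes and are no test of them.

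The samples were 2 RNA preparations of ATDC5, a mouse chondrocyte cell line widely used as a model of cartilage differentiation. The first came from ATDC5 cells made to overexpress HES1, a transcriptional repressor of the Notch pathway, and the second from ATDC5 cells made to overexpress GFP, the green fluorescent protein. Both were stable lines made with a lentiviral vector, and RNA was taken from each after 3 days of monolayer culture on 60 mm dishes, with no other treatment named. The labels do not say how many clones or cultures stand behind each line. With 1 array per line there are no replicates, so no difference below has a test or an error between cultures, and a difference between the lines cannot be told apart from one between 2 cultures of the same kind.

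PML nuclear bodies are spots in the cell nucleus that form when PML, modified by the small protein SUMO, gathers partners such as SP100 and DAXX. DAXX is a chaperone that, with ATRX, places the histone variant H3.3 into chromatin, and SP100 and DAXX are known for silencing the DNA of incoming viruses. Type I interferon is known to raise the transcripts of PML and SP100 in many cells. The PHF11 proteins carry a PHD finger, a zinc-binding fold that in many proteins reads histone tails, and the mouse has several copies of the gene side by side on chromosome 14.

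Each value is a signal, the background-corrected brightness of a probe in scanner units, scaled so that the 75th percentile of both arrays was 1057.2. A level can be compared between the lines but not between probes. A probe counts as measured if it stood well above background on either array or both. Where the HES1 array alone passed, the fold is given as a lower bound. It is taken over the lowest signal well above background on the GFP array, 38.1, or over the probe's own GFP signal where that is larger. Such a bound holds only for this background correction. The error given after a log2 difference is the technical error of the scanner software for 1 spot on each array (median 0.20 over all genes), and it holds no difference between cultures. The depth of an array is its signal over background: 56.6% of spots passed in the HES1 line and 54.6% in the GFP line. The single Hes1 probe read 10.3 in the HES1 line and 10.2 in the GFP line, not well above background on either, so it gives no check of the label. Of 16 chondrocyte markers 11 were measured, with Sox9 at 3227 in the HES1 line and 3683 in the GFP line and Col2a1 at 7379 in the HES1 line and 13796 in the GFP line. Of the 11, 1 was at least 2-fold higher by bounds, Col9a3, at 269.7 in the HES1 line and 25.2 in the GFP line, at least 7.07-fold, and 0 were 2-fold lower by bounds. The 12 reference genes lay between -0.89 and 0.21 on the log2 scale.

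By the brightest probe of each gene, 8 of the 9 differed by 2-fold or more toward the HES1 line, and 0 of the 9 by 2-fold toward the GFP line. Sp110 was the exception, at 1.63-fold. Over all 14273 measured genes, 9.49% were higher by 2-fold or more and 4.47% lower by as much when bounds are used, and 11.1% were higher when the signals are used as read. The members' median log2 difference was 3.15, or 2.46 with bounds, and that of all genes was -0.06. By probe, 13 of 14 were at least 2-fold higher, beside 7.81% of all 32074 measured probes. Nothing is read from these shares, since the list was chosen with the same contrast in view.

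**Figure D1:**
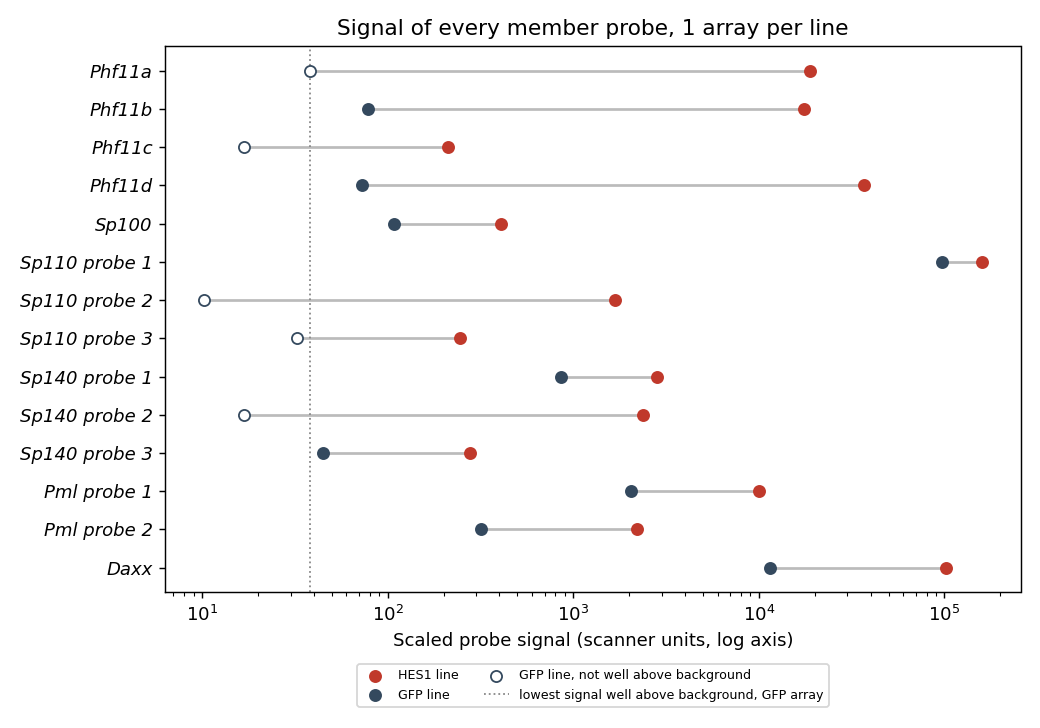
Scaled signal (scanner units, log axis) of each of the 14 probes on the HES1 array (red) and the GFP array (dark blue), 1 array per line, with open circles where the GFP signal was not well above background and a dotted line at 38.1. In each row the HES1 point lies right of the GFP point, from a narrow gap for Sp110 probe 1 to gaps of over 2 decades for Phf11a, Phf11b, Phf11d, Sp110 probe 2 and Sp140 probe 2.

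Phf11d, Phf11a and Phf11b had the largest differences of the list by the brightest probe of each gene, and those of Phf11a and Phf11c were bounds. The human PHF11 protein is known from T cells and from work on the resection of broken DNA ends, and the roles of the separate mouse copies are less well described. Phf11d read 36833 in the HES1 line and 72.7 in the GFP line, and it was well above background on both. That is a 507-fold difference (log2 8.98 ± 0.28, technical), at rank 5 among the 13073 genes measured on both arrays. Phf11b, also measured on both arrays, read 17561 in the HES1 line and 78.3 in the GFP line. Its difference was 224-fold (log2 7.81 ± 0.27, technical), at rank 16 of the same 13073 genes. Phf11a read 18836 in the HES1 line and 38.1 in the GFP line, where it was not well above background, and it was at least 494-fold higher in the HES1 line. Phf11c read 210 in the HES1 line and 16.9 in the GFP line, again not well above background, and it was at least 5.51-fold higher in the HES1 line. All 4 copies were thus higher in the HES1 line. The true size for Phf11a and Phf11c is not known, and their bounds hold for this background correction only. With a different background correction (normexp), their log2 differences came to 7.33 for Phf11d, 6.42 for Phf11b, 6.58 for Phf11a and 1.08 for Phf11c. Those of Phf11a and Phf11c lay below their bounds, which are 8.95 and 2.46 on the log2 scale.

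The stretches of promoter that follow run from 120 bases before to 30 bases after the annotated transcription start, from RefSeq on GRCm38.p6, and are shown because they let the copies be compared where transcription begins. All 4 lie on the minus strand of chromosome 14, at chr14:59297493-59297642 for Phf11a, chr14:59341301-59341450 for Phf11b, chr14:59393483-59393632 for Phf11c and chr14:59365461-59365610 for Phf11d. Capitals mark pairs of GAAA with 1, 2 or 3 bases between them. The spacing of 2 bases is the layout of the element that interferon regulatory factors bind, and those of 1 and 3 bases are added variants.
Phf11a: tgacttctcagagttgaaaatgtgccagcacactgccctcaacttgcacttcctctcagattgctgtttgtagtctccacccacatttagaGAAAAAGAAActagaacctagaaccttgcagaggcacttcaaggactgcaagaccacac
Phf11b: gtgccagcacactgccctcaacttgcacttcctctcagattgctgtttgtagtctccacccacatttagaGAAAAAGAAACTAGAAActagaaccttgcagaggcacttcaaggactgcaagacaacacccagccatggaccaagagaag
Phf11c: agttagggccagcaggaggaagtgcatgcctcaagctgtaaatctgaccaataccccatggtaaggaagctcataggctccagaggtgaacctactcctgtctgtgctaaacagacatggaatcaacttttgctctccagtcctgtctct
Phf11d: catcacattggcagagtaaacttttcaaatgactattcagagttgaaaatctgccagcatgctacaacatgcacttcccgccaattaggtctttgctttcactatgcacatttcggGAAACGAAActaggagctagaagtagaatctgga

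Over the full windows of 300 bases (250 before the start and 50 after it), Phf11a and Phf11b aligned over 279 columns with 98.2% identical bases. Phf11d aligned with Phf11a over 180 columns at 72.8%, while Phf11c shared no stretch over 19 columns with any of the other copies. The pair with any 2 bases between (GAAA, NN, GAAA), searched on both strands, was present once in Phf11a, at -29 to -20 from the start, and once in Phf11b, at -50 to -41, and 3.44% of all 32851 RefSeq windows of mouse genes hold it. In Phf11b it overlapped a pair with 3 bases between at -44 to -34. The closer form GAAANGAAA, held by 3.17% of windows, lay across the start of Phf11d, at -4 to 5, and Phf11d also held pairs with 3 bases between at 29 to 39 and 36 to 46, a form held by 2.75%. The spacings of 1 and 3 bases were added after the sequences had been seen. Phf11c had no pair of any of the 3 spacings in this window, which says only that these letters are not there. Because Phf11a and Phf11b are near-identical at the start of the gene and the probe sequences were not used here, whether their probes tell the 2 transcripts apart was not tested.

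The speckled protein genes were higher in the HES1 line too, with probes of the same gene that disagreed in size. Sp100, a founding constituent of the nuclear body, had 1 probe, with 410 in the HES1 line and 108 in the GFP line. It was 3.78-fold higher (log2 1.92 ± 0.25, technical), at rank 366 of the genes measured on both arrays, and 1.11 on the log2 scale with normexp. Sp110, also called Ipr1, is known in the mouse for limiting the growth of intracellular bacteria in macrophages. Its brightest probe read 158518 in the HES1 line and 97265 in the GFP line, a log2 difference of 0.70 ± 0.20 (technical), the one probe of the list within 2-fold. The second Sp110 probe read 1682 in the HES1 line and 10.3 in the GFP line, at least 44.1-fold higher. The third read 244 in the HES1 line and 32.5 in the GFP line, at least 6.40-fold higher. Neither of these passed the background limit on the GFP array, where the first probe was far brighter than that limit. The median over the 3 probes was 2.91 on the log2 scale, so the gene passes 2-fold by its median and not by its brightest probe.

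Sp140, a reader of modified chromatin whose loss in mice raises type I interferon responses, had 3 probes as well. The brightest read 2820 in the HES1 line and 863 in the GFP line, 3.27-fold higher (log2 1.71 ± 0.20, technical). The second read 2381 in the HES1 line and 16.9 in the GFP line, at least 62.4-fold higher. The third read 277 in the HES1 line and 44.8 in the GFP line, and was 6.18-fold higher (log2 2.63 ± 0.36, technical). All 3 were higher in the HES1 line, while their log2 differences spanned 5.43 between the probes, against a span of 6.65 for Sp110 and 0.49 for Pml. Which transcripts each probe reads was not tested.

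**Figure D2:**
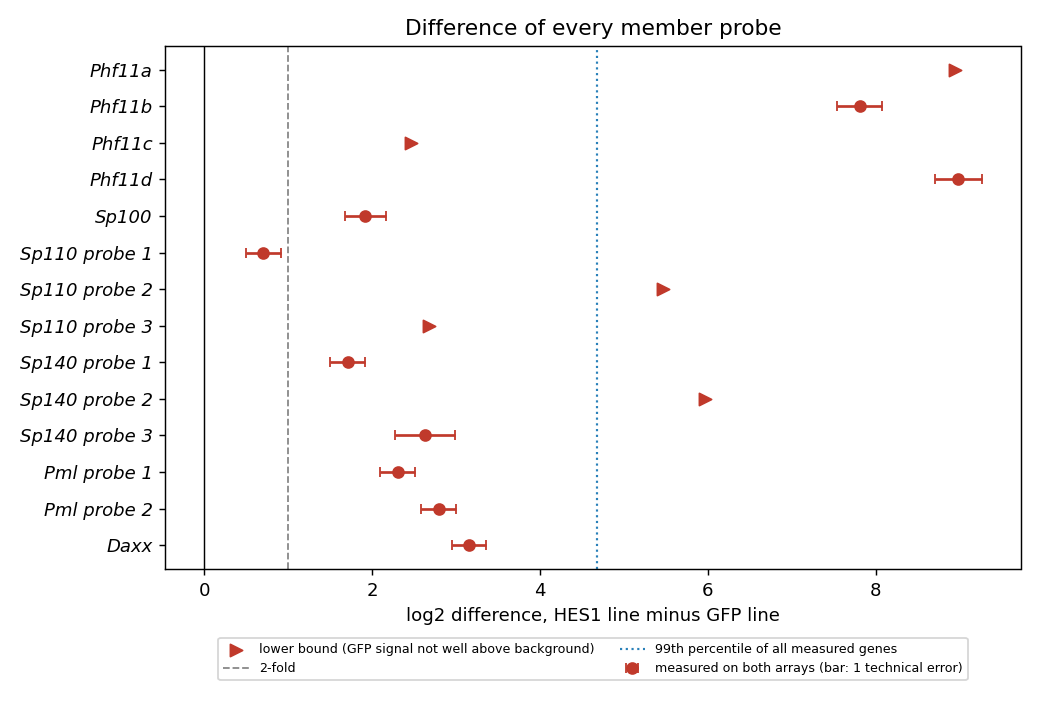
Log2 difference, HES1 line minus GFP line, of each of the 14 probes: circles for the 9 probes measured on both arrays (bar: 1 technical error), triangles for the 5 lower bounds, with lines at 2-fold and at the 99th percentile of all measured genes, 4.68. Probes of Phf11a, Phf11b and Phf11d and the second probes of Sp110 and Sp140 lie past the 99th percentile line, and Sp110 probe 1 lies below 2-fold.

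Pml and Daxx were well above background in both lines at every probe. The brighter Pml probe read 10071 in the HES1 line and 2039 in the GFP line, 4.94-fold higher (log2 2.30 ± 0.20, technical), at rank 283. The other Pml probe read 2206 in the HES1 line and 319 in the GFP line, 6.92-fold higher (log2 2.79 ± 0.21, technical), so the probes of this gene gave similar sizes. Daxx read 101810 in the HES1 line and 11445 in the GFP line, 8.90-fold higher (log2 3.15 ± 0.20, technical), at rank 181. Its difference ran between 3.15 and 3.33 over the alternatives of processing that were run, and that of Pml between 2.23 and 2.55.

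Ordered by log2 difference at the brightest probe, the genes ran Phf11d (8.98), Phf11a (at least 8.95), Phf11b (7.81), Daxx (3.15), Phf11c (at least 2.46), Pml (2.30), Sp100 (1.92), Sp140 (1.71) and Sp110 (0.70). Sp100 and Sp140 lay within 1 technical error of each other, as did Phf11d and Phf11a. Phf11a and Phf11c have no settled place because their values are bounds. For all measured genes the 90th percentile was 1.12 and the 99th was 4.68. Among genes measured on both arrays, those with log2 differences nearest to that of Phf11d were Rsad2 (8.96), Irf7 (8.90) and Ifi44 (9.08), over 2 arrays. Nearest to Sp100 were Grina, Akap12 and Gfra2, the first 2 at 1.92 and Gfra2 at 1.93, and nearest to Pml were Ptgds (2.30), Gadd45a (2.31) and Enkur (2.30). A likeness over 2 arrays is a likeness of 1 number and no more.

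**Figure D3:**
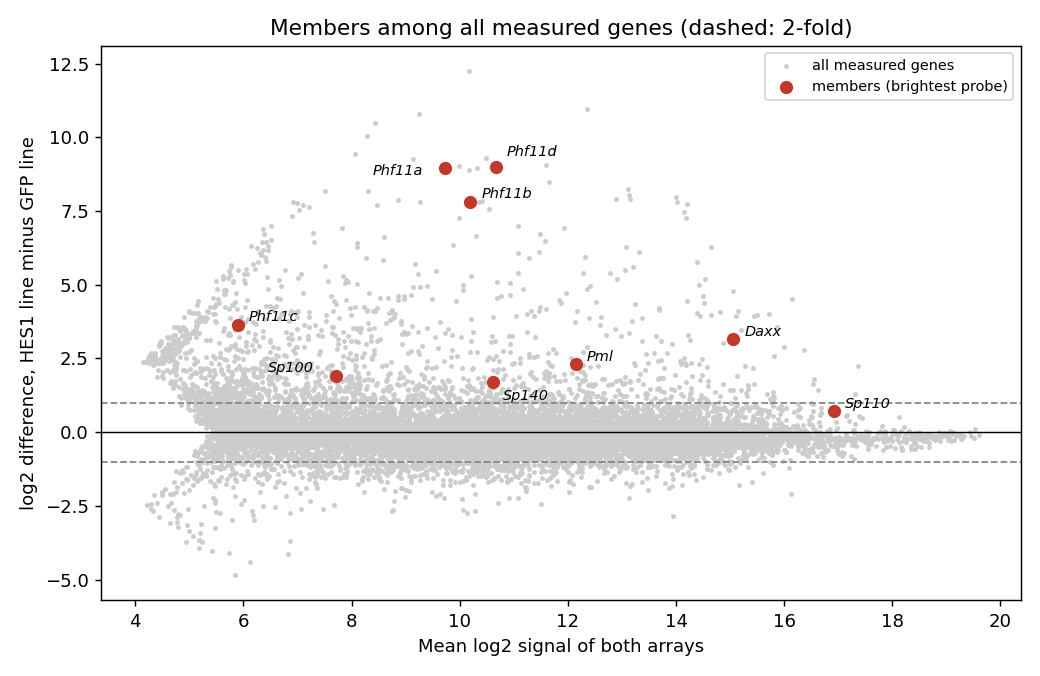
Log2 difference, HES1 line minus GFP line, against the mean log2 signal of both arrays for all 14273 measured genes (grey) and the 9 members by their brightest probe (red), with dashed lines at 2-fold. The members lie at both low and high mean signal, and each lies above 0.

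The other nuclear body genes were read from a list. Of 40 partners of the nuclear body (SUMO pathway enzymes, PML-binding proteins and H3.3 chaperone partners), all 40 were measured, 1 was at least 2-fold higher and none lower, beside 9.49% higher and 4.47% lower over all measured genes, and their median log2 difference was 0.03. The one was Isg20, an interferon-induced exonuclease found in PML bodies, at 141110 in the HES1 line and 23626 in the GFP line, 5.97-fold higher (log2 2.58 ± 0.20, technical). Atrx, which works with DAXX, differed by -0.61, Topors by 0.68, and Senp6, a SUMO protease, had the lowest value of the list, -0.77. Of 36 other genes with PHD fingers 35 were measured. By bounds none was at least 2-fold higher, and 1 was lower: Phf19, a Polycomb-associated protein, at 1246 in the HES1 line and 2976 in the GFP line, 2.39-fold lower. Their median was -0.15. Of Dpf3, 60.3 in the HES1 line and 23.9 in the GFP line, the second was not well above background, and its bound was under 2-fold.

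The type I interferon pathway was read from 10 listed genes, all measured, of which 6 were at least 2-fold higher in the HES1 line. The share over all measured genes was 9.49% by bounds, and the list was chosen with earlier results known. Irf7, a factor that drives interferon alpha genes, read 25160 in the HES1 line and 52.8 in the GFP line. Stat2, a subunit of the factor that interferon activates, was 18.4-fold higher, with 56470 in the HES1 line and 3065 in the GFP line. Its partner Irf9 was 14.7-fold higher, with 40561 in the HES1 line and 2752 in the GFP line. Irf1 was 5.77-fold higher. Ifnb1, which encodes interferon beta, was at least 17.4-fold higher, with 665 in the HES1 line and 10.8 in the GFP line, where it was not well above background. The receptor genes Ifnar1 (-0.18) and Ifnar2 (0.35) and the receptor kinases Jak1 (0.03) and Tyk2 (-0.14) were within 2-fold on the log2 scale. The part of interferon in the members' differences was not tested.

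Members could also be read by their neighbours on the chromosome, with gene order from RefSeq. Beside the PHF11 genes, Rcbtb1 read 2213 in the HES1 line and 2722 in the GFP line (log2 -0.30). On the other side, Setdb2 came first and had no probe. Cab39l, after it, read 2143 in the HES1 line and 2154 in the GFP line (log2 -0.01). In a gene list drawn up for that region, whose distances from the PHF11 genes were not checked, 9 were measured. Of these 1 was at least 2-fold higher, Fndc3a, by 3.16-fold. On one side of the Sp110, Sp140 and Sp100 group, the flanking genes A530032D15Rik and C130026I21Rik were higher in the HES1 line by 17.9-fold and at least 39.0-fold. On the other side, A630001G21Rik came first and was not measured. Cab39, after it, read 8372 in the HES1 line and 8291 in the GFP line (log2 0.01). In a list of neighbours that leaves out those 2 flanking genes, 10 were measured and 2 were at least 2-fold higher, Csprs, described with the cluster genes, and Htr2b at 2.61-fold or more. Nmur1 was lower, by at least 5.65-fold. Beside both lists, the share over all measured genes was 9.49% higher and 4.47% lower by bounds.

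Beside Daxx, Tapbp, which encodes the tapasin that loads peptide onto MHC class I, was 4.76-fold higher, with 86869 in the HES1 line and 18237 in the GFP line. Zbtb22, between Daxx and Tapbp in the gene order, was at -0.83 on the log2 scale. On the other side of Daxx, Smim40 came first and had no probe. Kifc1, past it, was lower, with 2394 in the HES1 line and 7340 in the GFP line (log2 -1.62). A gene list drawn up for the Daxx region leaves out Kifc1, and the distance of its genes from Daxx was not checked. Of its 13 measured genes 1 was at least 2-fold higher, Tapbp, and 1 lower, Kifc5b, by 3.03-fold. Over all measured genes 9.49% were higher and 4.47% lower by bounds. Around Pml 3 of 6 measured neighbours were at least 2-fold higher, beside the same 9.49% of all measured genes. They were Islr at 5.10-fold, Stoml1 at 2.45-fold and Islr2 at 11.8-fold or more. Loxl1, a little further on, was at -0.04.

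Chromosome 1 also holds multi-copy genes related to Sp100 and Sp140, among them Csprs, the component of Sp100-rs, and Gm7609, A530032D15Rik and C130026I21Rik, a set added after the values had been seen. Of 9 such genes listed 4 were on the array, and all 4 were at least 2-fold higher in the HES1 line. The share over all measured genes was 9.49% by bounds. A530032D15Rik read 1324 in the HES1 line and 74.0 in the GFP line, 17.9-fold higher. C130026I21Rik read 1488 in the HES1 line and 16.9 in the GFP line, at least 39.0-fold higher. A second probe of C130026I21Rik read 147 in the HES1 line and 10.9 in the GFP line, at least 3.85-fold higher, and a second probe of A530032D15Rik was above background on neither array. Gm7609 read 1618 in the HES1 line, at least 42.4-fold over the GFP line, where it was not well above background. Of the 3 Csprs probes, the one with the highest signal in the HES1 line read 18594 there and 12.6 in the GFP line, at least 487-fold higher, and the smallest was 4.48-fold, with 1512 in the HES1 line and 337 in the GFP line. Probes of genes this alike may read each other's transcripts, and this was not tested.

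The promoters of these genes are shown to let the near-copies be compared with the members. Each runs from 120 bases before to 30 after the start, from RefSeq on GRCm38.p6, with the same capitals, which on the opposite strand read TTTC. Sp100 lies at chr1:85649868-85650017 (plus strand), Gm7609 at chr1:85199491-85199640 (plus strand) and the second annotated start of Sp110 at chr1:85598781-85598930 (minus strand). Where a gene had 2 annotated starts, the one with more GAAA pairs was shown, or the first on a tie. The first annotated start of Sp110 had no pair of any spacing.
Sp100: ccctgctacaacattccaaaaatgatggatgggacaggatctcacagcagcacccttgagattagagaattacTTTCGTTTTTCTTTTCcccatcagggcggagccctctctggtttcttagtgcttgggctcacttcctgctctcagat
Gm7609: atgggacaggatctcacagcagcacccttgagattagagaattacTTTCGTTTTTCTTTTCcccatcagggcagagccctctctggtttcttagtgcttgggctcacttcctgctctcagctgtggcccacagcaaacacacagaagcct
Sp110: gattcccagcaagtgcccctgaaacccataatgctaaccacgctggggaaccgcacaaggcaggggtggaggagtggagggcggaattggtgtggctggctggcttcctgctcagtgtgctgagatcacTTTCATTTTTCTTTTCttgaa

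Sp100 and Gm7609 aligned over 298 columns of the 300-base windows with 98.3% identical bases. Sp140 aligned with A530032D15Rik over 271 columns and with C130026I21Rik over 255 columns, each at 99.6%. In the windows shown, the pairs in Sp100 lay at -47 to -32, those in Gm7609 at -75 to -60 and those in Sp110 at 10 to 25. In all 3 a pair with 1 base between overlapped a pair with 3 bases between, on the strand opposite to transcription. For Sp100 and Sp110 the best local alignment covered 21 columns, with 19 identical bases. Sp140, Pml and Daxx had none of the 3 spacings in this window. TTCNNNGAA, the form that STAT dimers bind, and CACGNG, one of the forms that HES proteins bind, were found in none of the 13 windows of the 9 genes, against 8.3% and 27.5% of all windows. CACNAG, the other HES form, was found in 6 of the 13, those of Sp100, Sp110, Pml and Daxx, and in 42.5% of all windows. A match is a description of the letters and not a site that is bound.

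**Figure D4:**
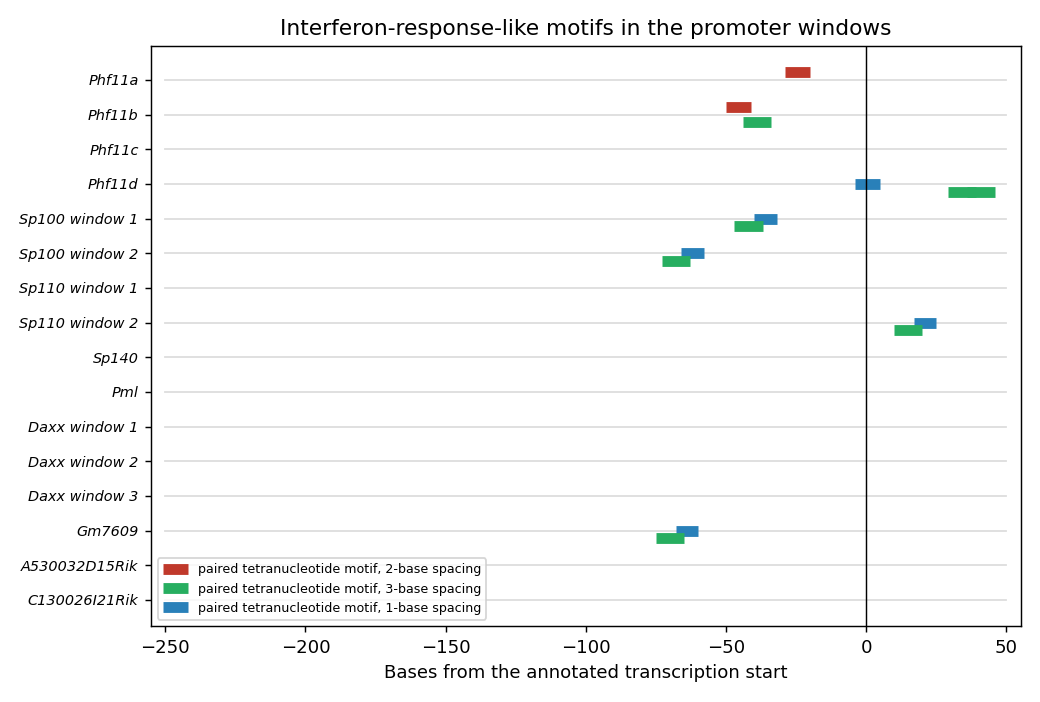
Position of paired GAAA matches in bases from the annotated start for the windows of the 9 members and 3 near-copies, from 250 bases before to 50 after it, with a colour for each spacing. Matches lie near the start in Phf11a, Phf11b, Phf11d, Sp100, Sp110 (window 2) and Gm7609, and the rows of Phf11c, Sp140, Pml, Daxx, A530032D15Rik and C130026I21Rik are empty.

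The array also holds 15975 probes named only by a position on mm9, with a suffix F or R whose meaning is not given in the sources used here. The mm9 positions of genes were not used here, so these probes are not tied to a gene. In the stretch of chromosome 1 named at the start, 34 probes fell in 8 intervals. Of these probes 26 were measured and 8 passed the background limit on neither array. Of the 26, 19 were at least 2-fold higher in the HES1 line by bounds and none was lower, beside 6.34% of the 7126 measured position-named probes of the array. Their median log2 difference was 3.56, or 1.86 by bounds, and that of all position-named probes was -0.07. Only 6 of the 26 were well above background in the GFP line, so most sizes are bounds.

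The interval chr1:85036677-85038530 held 2 probes, one with 6404 in the HES1 line and 12.6 in the GFP line, at least 168-fold higher, and one with 3720 in the HES1 line, at least 97.5-fold higher. The 3 probes of chr1:85304494-85305390 read 2697, 3008 and 3302 in the HES1 line and 10.6, 34.3 and 37.9 in the GFP line, at least 70.7-fold to 86.6-fold higher. In chr1:85117750-85129200, suffix F, 3 of 5 probes had 3432, 3061 and 710 in the HES1 line and bounds of 18.6-fold or more, and the other 2 were not well above background on either array. The 5 R probes of the same interval read between 64.2 and 337 in the HES1 line, none passed the background limit in the GFP line, and 4 were at least 2-fold higher. The R probes of chr1:85310067-85323941, between 94.4 and 141 in the HES1 line, had bounds between 2.48-fold and 3.69-fold. Other intervals were mixed. A probe of chr1:85156338-85167730 read 664 in the HES1 line and 829 in the GFP line (log2 -0.32), the smallest of the window, while another of that interval was 2.50-fold higher. The F probes of chr1:85323303-85337483 held one at 882 in the HES1 line and 684 in the GFP line (log2 0.37). No probe of chr1:85150625-85185800 was 2-fold higher by bounds.

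Of the 34 probes, 11 carried the suffix F, with 3 higher by bounds of 5 measured, and 23 the suffix R, with 16 of 21. Intervals overlap in places, so their probes are not independent readings. Just before the window, the probe of chr1:84961943-84962737 read 751 in the HES1 line and 9.55 in the GFP line, at least 19.7-fold higher. The interval chr1:84947500-85045150, which straddles the near edge, held 1 probe of 8 that was higher by bounds. The next named interval past the far edge, chr1:87343550-87362900, is far from that edge, and of its 8 probes 1 was higher by bounds, with 3944 in the HES1 line and 9.97 in the GFP line, at least 103-fold.

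**Figure D5:**
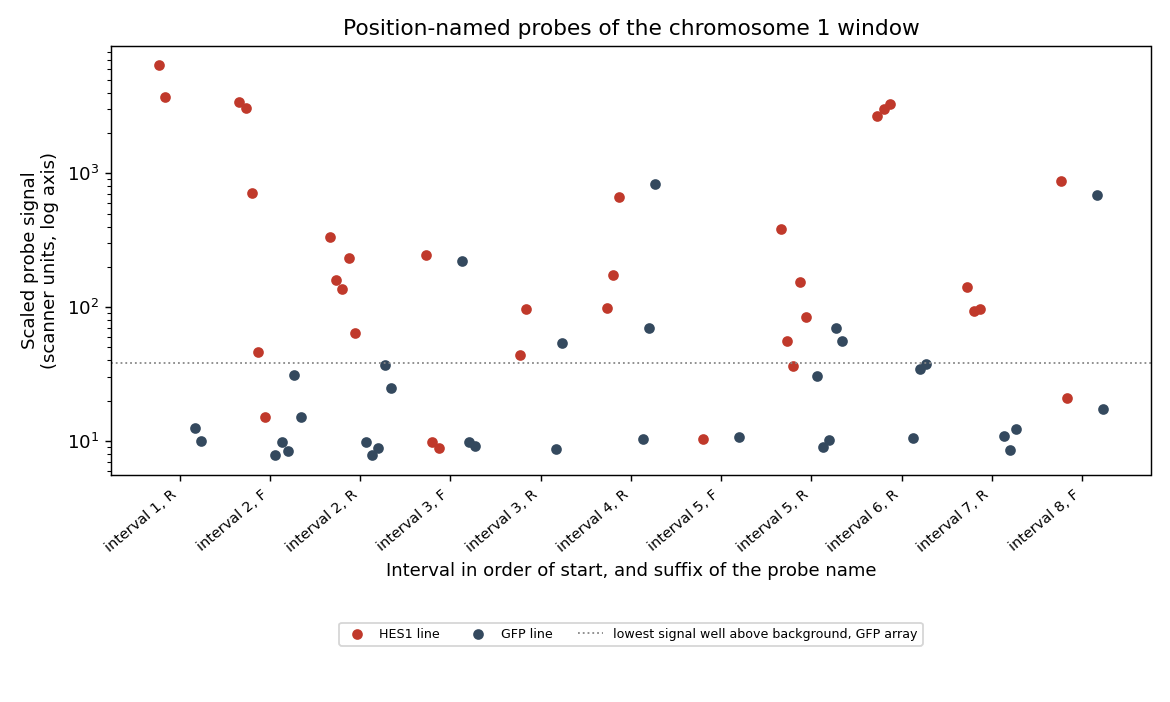
Scaled signal (log axis) of the 34 position-named probes of the window on the HES1 array (red) and the GFP array (dark blue), grouped by interval in order of start and by suffix. Probes of intervals 1 and 6 and 3 F probes of interval 2 lie far above their GFP points, while interval 3 F and interval 8 hold probes at like signal in both lines.

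Markers of other cell types that could bring these transcripts were read as well. Of 12 myeloid markers, 11 were on the array, 5 were measured and none was at least 2-fold higher; their summed signal was 25554 in the HES1 line and 50412 in the GFP line. Most of that sum is 1 probe of Itgam, at 22759 in the HES1 line and 47669 in the GFP line (log2 -1.07). By that probe Itgam was the 1 myeloid marker at least 2-fold lower. The dimmer Itgam probes went the other way, at 0.25 and 0.47 on the log2 scale, so the lower sum rests on the brightest probe. The other 4 measured genes lay between -0.12 (Cd14) and 0.92 (Ptprc, as read) on the log2 scale. Tyrobp, Lyz2, Adgre1, Laptm5, Spi1 and Cx3cr1, from the same myeloid list, were not well above background on either array. Ptprc, found on white blood cells, read 47.8 in the HES1 line and 25.2 in the GFP line. Only its HES1 signal passed the background limit, so its difference is a bound, 1.25-fold or more. The part of lymphoid markers in the result was not tested: of 12, 5 were measured and 1 was higher by bounds, Lck, by 15.5-fold, and their summed signal was 16131 in the HES1 line and 6253 in the GFP line. By bounds 1 of 4 measured endothelial markers was higher, Vwf, by 3.51-fold. Kdr was at 0.06 on the log2 scale by its brightest probe. Its other probe read 480 in the HES1 line and 10.8 in the GFP line, at least 12.6-fold higher. Among osteoblast markers 2 of 7 measured were lower by bounds, Ibsp and Sp7. Over all measured genes 9.49% were higher and 4.47% lower by bounds. The summed signal of the 11 measured chondrocyte markers, of which Sox5 gives 31887 in the HES1 line and 34961 in the GFP line, was 44543 in the HES1 line and 55355 in the GFP line. In RNA from a whole dish, fewer cells of a type and less RNA per cell cannot be told apart.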

How the data were processed

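Total RNA (0.1 µg per sample) was labelled with Cy3 and hybridised to 2 one-colour Agilent mouse arrays on the same slide, per the labels' protocols and the file headers. Per the file headers, each scanner file gives intensity values of single spots, read with Agilent Feature Extraction 10.10.1.1 and annotated on mm9, and the processed signal is background-corrected by that software. The deposited value table holds the same intensity times 1 factor per array, 1.53 for HES1 and 1.45 for GFP.

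From the scanner files, log2 of the processed signal was taken less each array's 75th percentile over 59305 spots that are not controls. Spots with an outlier flag on either array (1053) were left out, none was saturated, and spots of a probe were averaged. Probes were named through their accession and RefSeq (26869 of 54948 kept probes, 48.9%), and the brightest probe stood for a gene. Differences were counted past 2-fold, with bounds for probes seen on 1 array only. With 1 array per group no test could be run. On simulated arrays the 2-fold count called 100% of 100 genes changed 4-fold and 0% of 100 changed 1.5-fold. Both sizes lie clear of the 2-fold cut, so this checks the counting alone. It does not show how well the count finds differences between cultures.

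The members and lists were chosen with earlier results of these data known. Named were all members by every probe, genes past 2-fold in each list (at most 4, otherwise the largest), flanking genes, the 3 nearest in difference to Phf11d, Sp100 and Pml, and the interferon context genes, of which 1 is not reported here. Marker genes, Topors, Atrx, Senp6, Dpf3 and the chromosome 1 cluster genes fall outside that rule and were picked with their values in view. Alternatives were quantile, median and loess scaling, the deposited values, normexp (limma 3.58.1, offset 50, on median spot signals, since the files hold no mean), filters on dim probes, outlier spots kept, median over probes and thresholds of 1.5-fold and 3-fold. Promoter windows were aligned with Biopython 1.88. Python 3.11.15 with pandas 2.3.3 and R 4.3.3 were used.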

Additional observations from a re-analysis of the deposited data

How the results depend on the processing

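No paired analysis was possible because each line has 1 array, and for the same reason no array could be left out. Over the 10 alternatives of processing that bear on a member's difference, the 9 members gave 88 values, of which 79 moved by no more than 1 technical error, 9 moved further and none changed sign. The count of members at least 2-fold higher was 8 in most alternatives, 9 with the median over probes or a 1.5-fold threshold, and 6 when only probes well above background on both arrays were kept, which leaves 7 genes. The members' median of 3.15 came to 2.23 with normexp, 2.30 on both arrays only and 2.46 with bounds. All genes at least 2-fold higher numbered 1582, against 850 with normexp, 920 on both arrays only, 2480 at 1.5-fold and 997 at 3-fold. Position-named probes at least 2-fold higher as read numbered 21, against 13 with normexp and 2 on both arrays only, where 20 of 26 probes drop out. The PHD finger count of 1 came to 0 with normexp, on both arrays only, at 3-fold and with bounds, and the partner count of 1 came to 2 at 1.5-fold. Keeping only probes well above background on both arrays removes every probe seen on 1 array alone, among them those of Phf11a and Phf11c. The causes of the lower counts, with that filter and with normexp, were not tested. The use of bounds and of intervals that overlap the window edge were chosen after seeing the data. The background limit of 38.1 on the GFP array leaves only a bound for Phf11a, Phf11c, probes 2 and 3 of Sp110 and probe 2 of Sp140.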
